A study of Mus musculus with 7 samples.

Results

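The RNA-binding proteins LIN28A and LIN28B, the let-7 microRNA family that they restrain, and genes tied to either of them were followed in mouse embryonic fibroblasts (MEFs) and mouse embryonic stem cells (mESCs). The 9 genes were Lin28a, Lin28b, Trim71, Igf2bp1, Igf2bp2, Igf2bp3, Hmga1, Hmga2 and Dis3l2, taken by symbol from a table of 55484 genes. All 9 were present, and all 9 were among the 16580 genes with enough counts to be tested. MEFs are connective tissue cells cultured from the mouse embryo, and mESCs are pluripotent cells derived from its earliest stages. RNA was sequenced from 4 MEF samples and 3 mESC samples, with no treatment, age or time point given for them. The study gives a C57/Bl6 background for all its MEFs and mESCs, in the methods for its ATAC-seq (chromatin accessibility) libraries. It describes the RNA data as a set that the laboratory already had. The labels do not say whether libraries of a cell type came from separate cultures. The study calls its transcriptional data biological replicates with n = 3, while 4 MEF libraries were used here. Y-linked genes differed between libraries of each cell type (values below), and the number of separate sources behind them was not tested. p-values cover the spread between these libraries, which may in part be technical. By a protocol text in the labels that otherwise describes blood stem cells of young and aged mice, the libraries were 3′-biased: RNA was primed at its poly(A) tail with a sample index and a molecular identifier, and indexed samples were pooled before amplification.

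let-7 is a microRNA family that rises as cells differentiate and lowers the output of mRNAs that carry matching sites in their 3′ untranslated region (3′ UTR). LIN28 proteins bind the let-7 precursor, in part through a GGAG motif in its loop, and recruit the terminal uridylyl transferases TUT4 and TUT7, and the exonuclease DIS3L2 degrades the uridylated precursor. The mRNAs of LIN28A, LIN28B, TRIM71, the IGF2BP proteins and HMGA2 are themselves known let-7 targets, which closes a loop in which each side restrains the other. Mature let-7 carries no poly(A) tail and was not measured by these libraries.

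The mature sequences are shown because the 7 bases by which the family recognizes its targets are the same in every member. RefSeq (GRCm38.p6) lists 12 mouse hairpins of the family, miR-98 included, which give 9 distinct mature 5p sequences. In the lines that follow, capitals mark the seed, bases 2 to 8 from the 5′ end, which read GAGGUAG in 9 of 9.
let-7a (chr13:48538239-48538260, minus strand): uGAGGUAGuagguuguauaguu
let-7b (chr15:85707325-85707346, plus strand): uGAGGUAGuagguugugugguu
let-7c (chr15:85706616-85706637, plus strand): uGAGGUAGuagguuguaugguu
let-7d (chr13:48536078-48536099, minus strand): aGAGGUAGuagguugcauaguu
let-7e (chr17:17830366-17830387, plus strand): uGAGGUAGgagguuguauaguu
let-7f (chr13:48537889-48537910, minus strand): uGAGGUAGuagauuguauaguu
let-7g (chr9:106178846-106178867, plus strand): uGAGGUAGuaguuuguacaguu
let-7i (chr10:122985698-122985719, minus strand): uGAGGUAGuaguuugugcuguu
miR-98 (chrX:151913229-151913250, plus strand): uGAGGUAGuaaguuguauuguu

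Hairpins are shown for the loop that LIN28 contacts. A GGAG motif lay between the mature arms in 9 of the 12 hairpins, and was not found there in Mirlet7b, Mirlet7c-2 and Mir98. Capitals mark the motif in Mirlet7a-2, Mirlet7c-1 and Mirlet7g, and Mirlet7b is printed as a hairpin in which these letters are not in the loop.
Mirlet7a-2 (chr9:41536716-41536811, plus strand): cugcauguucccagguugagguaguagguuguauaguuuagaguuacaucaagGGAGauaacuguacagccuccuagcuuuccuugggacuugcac
Mirlet7c-1 (chr16:77599657-77599750, plus strand): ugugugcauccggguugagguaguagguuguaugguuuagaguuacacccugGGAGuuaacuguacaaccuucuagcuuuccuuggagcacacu
Mirlet7g (chr9:106178840-106178927, plus strand): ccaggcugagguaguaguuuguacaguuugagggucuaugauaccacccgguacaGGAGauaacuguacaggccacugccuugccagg
Mirlet7b (chr15:85707319-85707403, plus strand): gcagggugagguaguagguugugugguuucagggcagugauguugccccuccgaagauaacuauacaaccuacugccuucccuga

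Seed matches were counted in the longest annotated 3′ UTR of each gene (GENCODE M21, GRCm38). A 7-base match is CTACCTC, the reverse complement of the seed, and an 8-base match is CTACCTCA, with the A that faces the first base of the microRNA. Only the mRNA strand was searched, and each 8-base match is also counted as a 7-base match. Of the 9 genes, 8 held at least 1 7-base match and 7 held at least 1 8-base match, with 21 and 13 matches in all. Among 21025 genes with a 3′ UTR, 9.02% held a 7-base match and 3.06% an 8-base match. The 9 genes include established let-7 targets, so their matches are a description and not an independent result. Trim71 held 4 8-base matches, Igf2bp1 held 3 and Lin28a held 2, while 0.152% of all genes held 2 or more. The 3′ UTRs of these genes are 5512, 6337 and 2775 bases long, against a median of 961 over all genes. The shares were not adjusted for length. Lin28b and Hmga2 each held 4 7-base matches, of which 1 was an 8-base match. Trim71 and Igf2bp1 also held 4 7-base matches, a number reached by 12 of the 21025 genes. Igf2bp2 and Igf2bp3 each held 1 8-base match, Hmga1 held 1 7-base match, and the 350-base 3′ UTR of Dis3l2 held 0. The 22-base windows below, or 21 bases for a 7-base match, end at the match, which is in capitals. Each is named by its distance from the stop codon in bases. Not printed are the 7-base matches of Lin28b at bases 2410, 2582 and 3998 and of Igf2bp1 at base 5353.
Lin28a base 909 (chr4:134005189-134005210, minus strand): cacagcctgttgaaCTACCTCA
Lin28a base 1547 (chr4:134004551-134004572, minus strand): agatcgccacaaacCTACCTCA
Lin28b base 36 (chr10:45381022-45381043, minus strand): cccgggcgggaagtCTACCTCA
Trim71 base 166 (chr9:114512472-114512493, minus strand): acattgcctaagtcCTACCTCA
Trim71 base 262 (chr9:114512376-114512397, minus strand): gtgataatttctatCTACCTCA
Trim71 base 3591 (chr9:114509047-114509068, minus strand): ttagtatggattttCTACCTCA
Trim71 base 3617 (chr9:114509021-114509042, minus strand): tggcaaaaagttgtCTACCTCA
Igf2bp1 base 1715 (chr11:95961778-95961799, minus strand): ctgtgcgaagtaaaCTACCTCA
Igf2bp1 base 4136 (chr11:95959357-95959378, minus strand): agcagtgctattaaCTACCTCA
Igf2bp1 base 4730 (chr11:95958763-95958784, minus strand): tataaatggatgaaCTACCTCA
Igf2bp2 base 1313 (chr16:22059473-22059494, minus strand): cacacaaataaaagCTACCTCA
Igf2bp3 base 548 (chr6:49086787-49086808, minus strand): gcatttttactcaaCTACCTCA
Hmga2 base 58 (chr10:120364224-120364245, minus strand): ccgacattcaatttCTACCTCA
Hmga2 base 1295 (chr10:120362988-120363008, minus strand): cccactcctcaataCTACCTC
Hmga2 base 1733 (chr10:120362550-120362570, minus strand): tgatttgcaaggaaCTACCTC
Hmga2 base 2591 (chr10:120361692-120361712, minus strand): atcaaaacacactaCTACCTC
Hmga1 base 801 (chr17:27563278-27563298, plus strand): cctctgttcacaaaCTACCTC

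**Figure D1:**
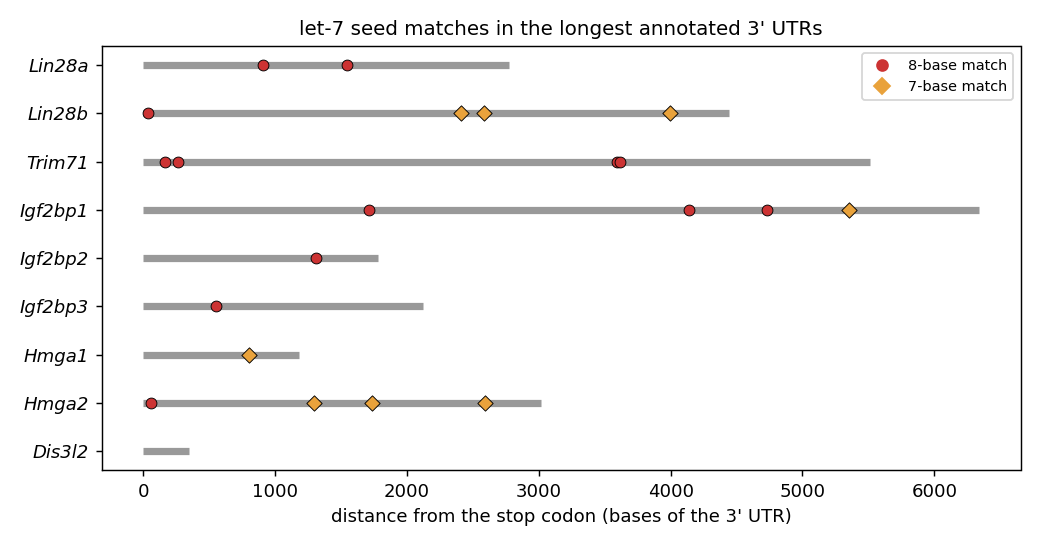
let-7 seed matches along the longest annotated 3′ UTR of each of the 9 genes. The x axis is the distance from the stop codon in bases, grey bars are the UTRs, circles are 8-base matches and diamonds are 7-base matches without the eighth base. Trim71 has 4 circles, Lin28b and Hmga2 have 1 circle and 3 diamonds each, and Dis3l2 has none.

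Library totals ran from 6528643 to 11441278 counts, so 3 counts, taken as the floor of a library, corresponded to 0.288 to 0.477 CPM (counts scaled to a common library size, after TMM scaling between libraries). Values are given for the libraries of a cell type in order of falling total, which for MEFs was 11441278, 9176467, 7312679 and 6528643 counts, and for mESCs 8193825, 8057985 and 7462710. Fold changes are log2 values of mESCs over MEFs from edgeR's quasi-likelihood test over all 16580 genes, ± standard error (SE), with Benjamini-Hochberg adjusted p. At an adjusted p under 0.05, 47.9% of all genes tested differed, 22.8% being higher and 25% lower in mESCs, and MEF and mESC libraries were without overlap in CPM in 52.1%. All 8 stem cell markers were higher and all 8 fibroblast markers lower in mESCs, and the MEF share of the mESC level of a stem cell marker was 0.469% to 4.52% (median 0.653%). The 12 markers of other cells summed to 102 to 125 CPM in MEFs and 107 to 138 CPM in mESCs. Among them, Sox17 was at 0 in every MEF library and at 5.53, 4.66 and 1.06 CPM in mESCs. Gata4 was at 0.191 ± 0.381 CPM in MEFs and 1.66 ± 0.765 CPM in mESCs, and Gata6 at 30.1 ± 4.95 and 16.8 ± 8.66 CPM (SD). Of the 5 markers of other cells that could be tested, Neurod1 was higher and Cd53 lower in mESCs (25.3 against 0.0637 CPM and 0.192 against 2.74 CPM). The basal keratinocyte keratins Krt5 and Krt14 made up most of those sums and were near 40 CPM in both cell types (39.1 ± 4.39 and 40.7 ± 5.30 in MEFs, 36.1 ± 2.97 and 40.7 ± 4.80 in mESCs, SD, n = 4 and 3). Fewer cells of a type and less RNA per cell cannot be told apart in such bulk libraries.

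Of the 9 genes, 5 were higher in mESCs (Lin28a, Lin28b, Trim71, Igf2bp1 and Hmga1), 2 were lower (Igf2bp2 and Hmga2), and Igf2bp3 and Dis3l2 did not pass the test. The background for these counts is 22.8% higher and 25% lower among all genes tested. MEF and mESC libraries were without overlap in each of the 9, against 52.1% of all genes tested. The median fitted log2 fold change was 0.99 over the 9 genes and 0.04 over all genes tested. That median is the value of Hmga1, which was called in only 6 of 14 alternatives. With the counts of its copy Hmga1b added to it, 4 of the 9 were higher.

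**Figure D2:**
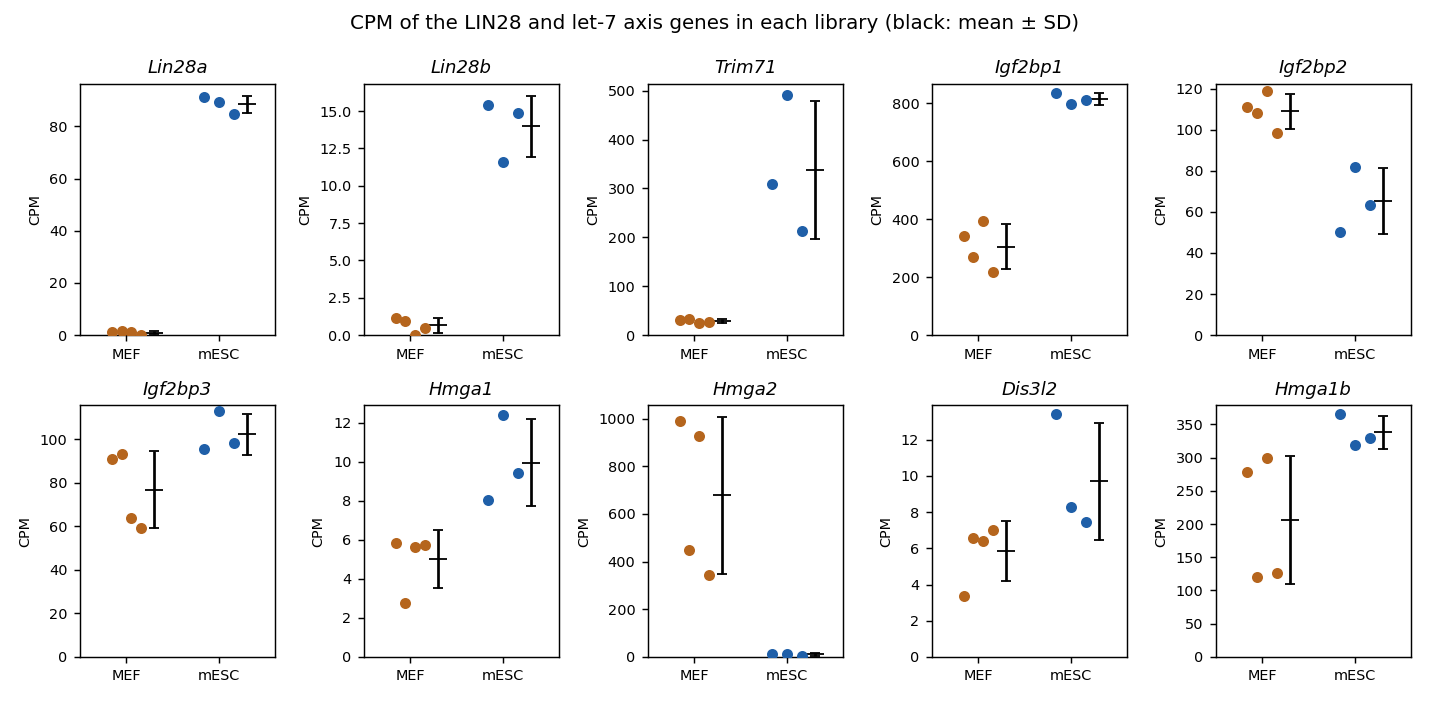
CPM of the 9 genes and of Hmga1b, the intronless copy of Hmga1, in each library. Points are libraries in order of falling total from left to right, black marks are mean ± SD (4 MEF, 3 mESC), the y axis is linear from 0 and differs between panels. Lin28a is at 84.8 to 91.4 CPM in mESCs and at 0 to 1.56 CPM in MEFs, and Hmga2 is at 345 to 988 CPM in MEFs and at 5.07 to 13.9 CPM in mESCs.

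Both LIN28 genes, which encode the proteins that block let-7 maturation, were on in mESCs and near the floor in MEFs. Lin28a (chr4:134003330-134018841, minus strand) had 11, 13, 9 and 0 counts in MEFs and 843, 785 and 719 in mESCs. This is 0.996 ± 0.696 CPM in MEFs (SD, n = 4) and 88.5 ± 3.33 CPM in mESCs (SD, n = 3). The 3 mESC libraries lay within 1.08-fold of each other, and every one was above every MEF library. Its log2 fold change was 6.40 ± 0.441 (SE), the largest increase of the 9 genes (edgeR adjusted p = 1.08e-06).

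Lin28b (chr10:45376620-45486395, minus strand) had 12, 8, 0 and 3 counts in MEFs and 142, 102 and 126 in mESCs, 0.647 ± 0.516 CPM against 13.9 ± 2.06 CPM (SD, n = 4 and 3). It was higher in mESCs by 4.31 ± 0.586 on the log2 scale (SE, edgeR adjusted p = 0.000145). In MEFs, Lin28a was at 0 in 1 library and Lin28b was at or under the floor of 3 counts in the 2 smallest libraries. Pooled over libraries, the MEF level was 1.18% of the mESC level for Lin28a (95% Clopper-Pearson interval 0.809% to 1.66%, counting error only) and 5.21% for Lin28b (3.26% to 7.94%). The share of Lin28a lay within the range of the stem cell markers, 0.469% to 4.52%, and that of Lin28b was above it with an interval that reached into it. Krt5 and Krt14 stood at a like level in all libraries of both cell types, and whether this bears on the LIN28 genes was not tested. The part of RNA from other samples of the pool in the MEF counts was not tested.

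The ratio of Lin28b to Lin28a within a library does not depend on scaling between libraries. On the log2 scale (0.5 counts added) it was -2.57, -2.94 and -2.51 in the mESC libraries and 0.12, -0.67, -4.25 and 2.81 in the MEF libraries. The MEF ratios rest on 0 to 13 counts a gene and enclose the mESC ratios. The difference of means was -2.17 (exact permutation test over 35 assignments, two-sided, p = 0.286, n = 4 and 3). It was -1.07 without the MEF library of 6528643 counts and -3.42 without that of 7312679 counts, and with 2 or 0.1 counts added in place of 0.5 the exact permutation p was 0.0571 or 0.571.

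Trim71 (chr9:114507133-114564369, minus strand), an RNA-binding ubiquitin ligase with the largest number of 8-base matches among the 9, had 320, 277, 160 and 162 counts in MEFs and 2860, 4319 and 1798 in mESCs. The means were 28.5 ± 4.13 CPM and 338 ± 141 CPM (SD, n = 4 and 3). It was higher in mESCs by 3.56 ± 0.266 on the log2 scale (SE, edgeR adjusted p = 2e-06). Unlike both LIN28 genes, it stood well above the floor in every MEF library, at 24.4 to 33.2 CPM. Its mESC libraries spread 2.31-fold, with 491 CPM in the library of 8057985 counts and 212 CPM in that of 7462710 counts. The splicing factor Hnrnpa1, chosen after its values were seen, ran in the same order in these libraries, at 1668, 3245 and 597 CPM.

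The IGF2BP proteins are RNA-binding proteins that stabilize or localize bound mRNAs, and the 3 paralogs differed in direction. Igf2bp1 (chr11:95957163-96005940, minus strand) had 3578, 2249, 2574 and 1358 counts in MEFs and 7712, 7018 and 6853 in mESCs, 305 ± 78.1 CPM against 814 ± 19.8 CPM (SD, n = 4 and 3). It was higher in mESCs by 1.41 ± 0.186 (log2, SE; edgeR adjusted p = 0.000112), and its mESC libraries lay within 1.05-fold of each other.

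Igf2bp2 (chr16:22059009-22163299, minus strand) had 1155, 903, 781 and 618 counts in MEFs and 463, 723 and 537 in mESCs, 109 ± 8.56 CPM against 65.2 ± 16.1 CPM (SD, n = 4 and 3). It was lower in mESCs, with a log2 fold change of -0.74 ± 0.186 (SE, edgeR adjusted p = 0.00702), and the lowest MEF library, 98.3 CPM, was above the highest mESC library, 82.1 CPM. Igf2bp3 (chr6:49085223-49214957, minus strand) had 946, 780, 420 and 374 counts in MEFs and 880, 994 and 836 in mESCs, 76.9 ± 17.7 CPM against 102 ± 9.34 CPM (SD, n = 4 and 3). Its libraries did not overlap, but 93.5 CPM in MEFs came close to 95.4 CPM in mESCs, and the log2 fold change of 0.41 ± 0.193 did not pass (SE, edgeR adjusted p = 0.106, unadjusted 95% interval -0.02 to 0.84). Of the 50-base sequences of Igf2bp3, 18.1% are shared with Malsu1 on the opposite strand (log2 fold change 0.63, edgeR adjusted p = 0.00834), and the strand setting of the counting is not given, so the split of counts between them is uncertain.

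Within a library, Igf2bp2 relative to the sum of Igf2bp1 and Igf2bp3 was at log2 -1.97, -1.75, -1.94 and -1.49 in MEFs and at -4.21, -3.47 and -3.84 in mESCs. The groups did not overlap, and the mean ratio was 4.16-fold lower in mESCs. The exact permutation test gave p = 0.0286, the smallest that 4 against 3 libraries allow, and 0.0571 after adjustment over the 4 ratios tested. Igf2bp3 relative to Igf2bp1 was -1.92, -1.53, -2.61 and -1.86 in MEFs and -3.13, -2.82 and -3.03 in mESCs, a difference of -1.02 (exact permutation p = 0.0571, adjusted 0.0762, n = 4 and 3). Both ratios miss 0.05 after adjustment, although the values of the cell types were apart in both.

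**Figure D3:**
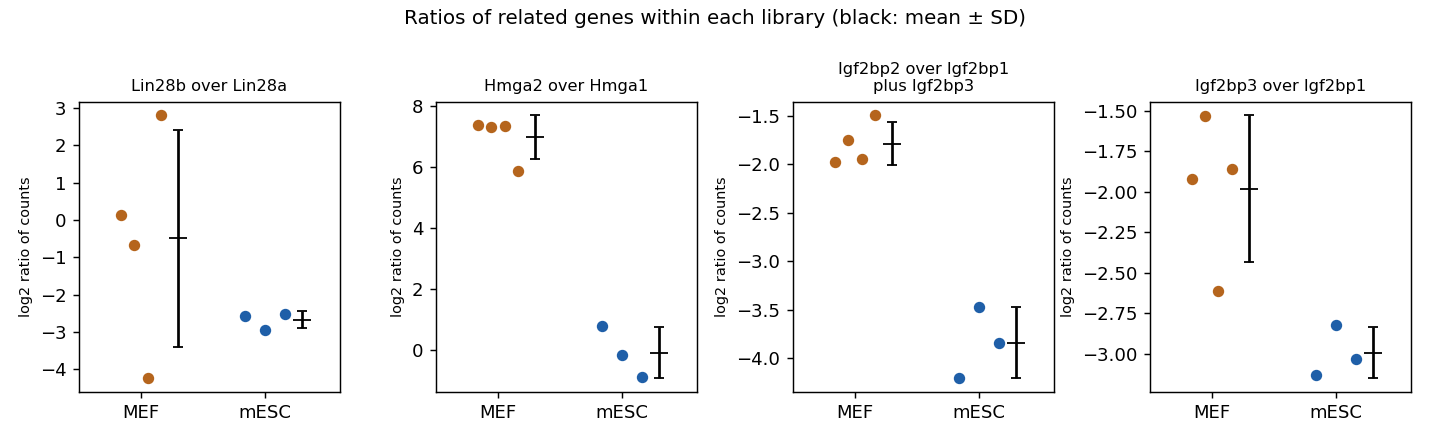
Log2 ratios of counts of related genes within each library (0.5 counts added). Points are libraries in order of falling total, black marks are mean ± SD, and the y axis differs between panels. Hmga2 over Hmga1 is at 5.89 to 7.39 in MEFs and -0.89 to 0.79 in mESCs, while Lin28b over Lin28a overlaps.

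HMGA proteins are AT-hook proteins that bend and open chromatin. Hmga2 (chr10:120361275-120476469, minus strand), a textbook let-7 target, went the opposite way to both LIN28 genes. It had 10299, 3738, 6094 and 2168 counts in MEFs and 128, 98 and 43 in mESCs. The means were 677 ± 328 CPM and 10.0 ± 4.50 CPM (SD, n = 4 and 3), and the fitted level was 67.3-fold higher in MEFs (log2 fold change -6.07 ± 0.516, SE; edgeR adjusted p = 4.94e-06). Every MEF library was above every mESC library, the gap running from 13.9 to 345 CPM. By group means, the mESC level of Hmga2 was 1.48% of its MEF level. For the fibroblast markers that share ran from 0.452% (Col1a2) to 41% (Fn1). The part of RNA from other samples of the pool in the mESC counts of Hmga2 was not tested.

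The MEF libraries fell into a high and a low pair for Hmga2, a split chosen after its values were seen. The MEF libraries of 11441278 and 7312679 counts had 988 and 929 CPM, and those of 9176467 and 6528643 counts had 448 and 345 CPM. Summed CPM of the Y-linked genes Ddx3y, Eif2s3y and Kdm5d was 2.11 and 0.61 in the first pair and 90.6 and 88.4 in the second, and summed CPM of the fibroblast markers was 23211 and 27392 against 39877 and 31302. Whether the sex of the embryos or the makeup of the cultures bears on Hmga2 was not tested. In mESCs, the library with 35.9 CPM of the Y-linked genes had 5.07 CPM of Hmga2, and those with 1.73 and 1.82 CPM had 13.9 and 11.1 CPM.

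Hmga1 (chr17:27556497-27563674, plus strand) had 61, 23, 37 and 36 counts in MEFs and 74, 109 and 80 in mESCs, 4.99 ± 1.49 CPM against 9.95 ± 2.23 CPM (SD, n = 4 and 3). It was higher in mESCs by 0.99 ± 0.353 on the log2 scale (SE, edgeR adjusted p = 0.0385). The call was lost in 8 of 14 alternatives, with adjusted p from 0.0503 to 0.61. Leaving out the MEF library of 7312679, 9176467 or 6528643 counts gave adjusted p = 0.0503, 0.0789 and 0.0512 by edgeR, and leaving out the mESC library of 8057985 or 7462710 counts gave adjusted p = 0.15 and 0.0772.

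Most counts that could be assigned to this gene stood on its intronless copy Hmga1b (chr11:120762794-120764419, plus strand), and Hmga1 held 1.84% to 4.35% of the pair's counts. Of the 50-base sequences of Hmga1, 55% are shared with that copy or an overlapping antisense gene, and of Hmga1b 89%, so uniquely mapped reads cannot give the level of either well. Hmga1b had 2899, 1013, 1971 and 791 counts in MEFs and 3374, 2808 and 2794 in mESCs, 206 ± 96.1 CPM against 338 ± 24.5 CPM (SD, n = 4 and 3). Its log2 fold change was 0.71 ± 0.307 (SE, edgeR adjusted p = 0.08), and with the counts of both added it was 0.72 (adjusted p = 0.0734). The Hmga1b values of 278 and 300 CPM in MEFs were in the libraries in which Hmga2 was high, and 121 and 126 CPM in the others.

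The ratio of Hmga2 to Hmga1 was at log2 7.39, 7.31, 7.34 and 5.89 in MEFs and 0.79, -0.15 and -0.89 in mESCs, 134-fold lower in mESCs. The exact permutation test gave p = 0.0286 (adjusted 0.0571, n = 4 and 3). With the counts of Hmga1 and Hmga1b added, an alternative chosen after seeing the data, the ratio was 118-fold lower (exact permutation p = 0.0286). That log2 ratio was 1.39 to 1.85 in MEFs and -6.05 to -4.75 in mESCs.

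Dis3l2 (chr1:86703808-87050095, plus strand), the exonuclease that degrades uridylated pre-let-7, had 35, 55, 42 and 44 counts in MEFs and 124, 73 and 63 in mESCs. The means were 5.84 ± 1.67 CPM and 9.72 ± 3.25 CPM (SD, n = 4 and 3). The closest libraries were 7.0 CPM in MEFs and 7.43 CPM in mESCs, and the log2 fold change of 0.74 ± 0.363 did not pass (SE, edgeR adjusted p = 0.117, unadjusted 95% interval -0.06 to 1.55). Without scaling between libraries, which moves the median of all genes by 0.28, Dis3l2 was at 1.02 (adjusted p = 0.0372) and Igf2bp3 at 0.69 (adjusted p = 0.00938).

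**Figure D4:**
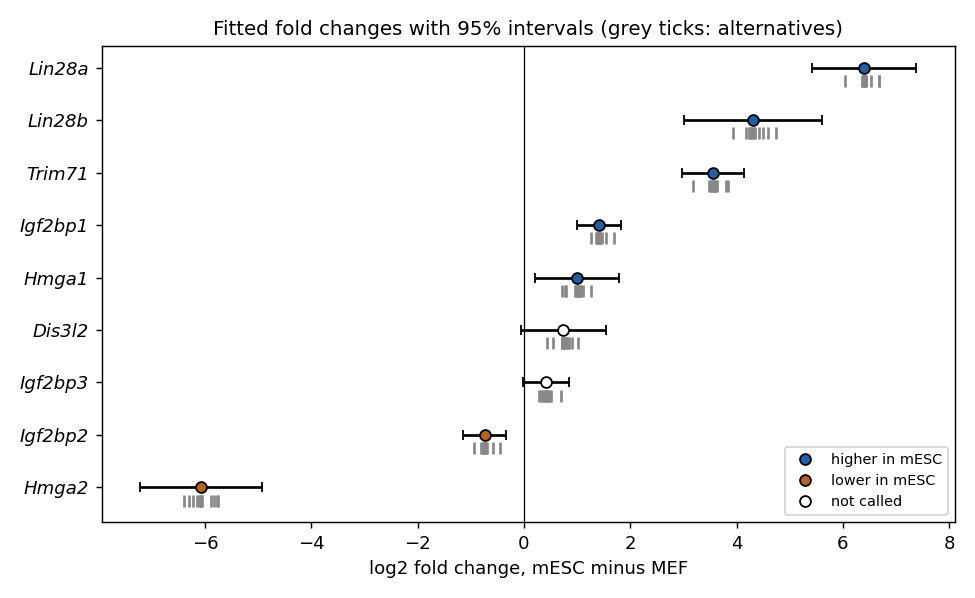
Fitted log2 fold changes of the 9 genes, mESCs over MEFs, with unadjusted 95% intervals from the degrees of freedom of the quasi-likelihood test. Blue passed as higher and brown as lower in mESCs (adjusted p under 0.05), white did not pass, and grey ticks are the values under the alternatives. Lin28a at 6.40 and Hmga2 at -6.07 lie at the ends, and the ticks of every gene stay on its side of 0.

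The let-7 hairpins have no poly(A) tail of their own, and 10 of the 16 precursor and host genes listed and found in the table were at 0 in all 7 libraries. Mirlet7a-2 had 5 counts and Mirlet7g 3, all in MEFs, and neither was above 3 counts in any library. The transcripts that carry the hairpins could be followed. Mir100hg, the host of Mirlet7a-2 in an intron on the same strand, had 201, 162, 150 and 142 CPM in MEFs and 5.09, 5.79 and 5.43 CPM in mESCs, and was lower in mESCs (log2 fold change -4.91 ± 0.205, SE, edgeR adjusted p = 3.77e-08). Mir99ahg, the host of Mirlet7c-1, was at 13.2 ± 4.38 CPM in MEFs and 6.32 ± 1.52 CPM in mESCs (SD, n = 4 and 3) and was also lower (-1.06 ± 0.342, edgeR adjusted p = 0.0254). Its call was lost in 5 alternatives, among them leaving out the MEF library of 6528643 counts (-0.86, adjusted p = 0.0691) and leaving out the mESC library of 8057985 (-0.90, adjusted p = 0.0887) or 7462710 counts (-1.07, edgeR adjusted p = 0.0619).

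Not all hosts were lower in mESCs. Huwe1, a ubiquitin ligase gene with Mirlet7f-2 and Mir98 in an intron, was higher by 0.81 ± 0.144 (edgeR adjusted p = 0.000902), and Wdr82, which holds Mirlet7g in an intron, was at 69.9 ± 3.64 and 72.1 ± 14.2 CPM (log2 fold change 0.04, edgeR adjusted p = 0.851). Of these 4 tested hosts, 1 was higher, 2 were lower and 1 did not pass, beside 22.8% higher and 25% lower among all genes tested. Hosts of other hairpins were looked up by position after the values were seen. Spaca6, host of Mirlet7e, was lower (-0.61 ± 0.210, edgeR adjusted p = 0.0337). The long RNA 6720427I07Rik, with Mirlet7a-1, Mirlet7f-1 and Mirlet7d in exons, had 399 counts in MEFs and 546 in mESCs (0.75 ± 0.295, edgeR adjusted p = 0.0579), and Lncppara, with Mirlet7b and Mirlet7c-2 in exons, had 58 and 6 (-2.90 ± 1.17, edgeR adjusted p = 0.0643). D630033A02Rik, an annotated pseudogene with Mirlet7i in an exon, had 69 counts in MEFs and 9 in mESCs and was not among the genes tested. Gm49317, a second transcript around Mirlet7a-2, had 0 counts in both cell types. The level of a host transcript is not that of a mature microRNA.

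A list of 9 genes of RNA uridylation and decay, not all specific to the let-7 precursor, held 4 higher in mESCs, 1 lower and 4 that did not pass. Dis3l2 is not in this list. Among all genes tested, 22.8% were higher and 25% lower. The median log2 fold change was 0.60 in this list beside 0.04 for all genes tested. The exosome subunit gene Exosc3 (0.89 ± 0.183, adjusted p = 0.00224), the uridylyl transferase gene Tut1 (0.87 ± 0.258, adjusted p = 0.0171) and the exonuclease gene Xrn1 (0.70 ± 0.178, adjusted p = 0.00764) rose most by the edgeR test. Tent2, a cytoplasmic nucleotidyl transferase, was lower (-1.0 ± 0.286, edgeR adjusted p = 0.0141). The call of Tut1 was lost without the mESC library of 8193825 (adjusted p = 0.0506) or 7462710 counts (0.0555), and that of Tent2 without the mESC library of 8193825 counts (0.0537) or without scaling (0.0589). The transferases that act with LIN28 did not pass: Tut4 was at 78.8 ± 28.9 CPM in MEFs and 116 ± 18.3 CPM in mESCs (edgeR adjusted p = 0.0971), and Tut7 at 40.8 ± 7.53 and 36.8 ± 5.18 CPM (adjusted p = 0.578).

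Among 18 genes of microRNA processing and Argonaute complexes, 1 was higher, 2 were lower and 15 did not pass, with a median of 0.09. All genes tested were 22.8% higher and 25% lower, with a median of 0.04. Drosha, the nuclear nuclease that frees hairpins from their transcripts, was higher at 150 ± 8.44 CPM against 76.6 ± 8.48 CPM (log2 fold change 0.97 ± 0.145, edgeR adjusted p = 0.000277). Prkra, a partner of Dicer, was lower (-0.94 ± 0.225, edgeR adjusted p = 0.00536), as was the Argonaute partner Tnrc6a (-0.47 ± 0.149, adjusted p = 0.0223). The call of Tnrc6a was lost without scaling (-0.19, adjusted p = 0.293) and without the MEF library of 9176467 (adjusted p = 0.053) or the mESC library of 8057985 (adjusted p = 0.0551) or 7462710 counts (edgeR adjusted p = 0.0851). Dicer1 was at 58.1 ± 5.67 and 72.3 ± 12.1 CPM and did not pass (edgeR adjusted p = 0.152).

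A list of 30 other let-7 targets held 9 genes higher in mESCs, 14 lower and 7 that did not pass, with a median log2 fold change of -0.36, beside 22.8% higher, 25% lower and a median of 0.04 among all genes tested. The chromatin gene Arid3b (4.68 ± 0.369, edgeR adjusted p = 2.83e-06), the MYC family gene Mycn (4.36 ± 0.235, adjusted p = 2.01e-07) and the repressor gene Hic2 (3.37 ± 0.398, adjusted p = 5.28e-05) were the most raised. The collagen genes Col1a2 (-7.79), Col3a1 (-7.73) and Col1a1 (-7.72) were the most lowered (edgeR adjusted p = 1.64e-08, 1.66e-07 and 1.64e-08), and these 3 are also in the list of fibroblast markers. Mycn had 189 ± 12.8 CPM in mESCs and 9.24 ± 2.79 CPM in MEFs, while Myc ran the other way, at 5.29 ± 2.70 and 38.0 ± 12.1 CPM (SD, n = 3 and 4; log2 fold change -2.85, edgeR adjusted p = 0.000129).

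Of 8 RNAs known to be bound by IGF2BP proteins, 7 were lower in mESCs and 1 was higher, with a median of -3.60. Beside them, 25% of all genes tested were lower and 22.8% higher, with a median of 0.04. Myc, among those lower, is also in the list of other let-7 targets. The imprinted RNAs H19 (-7.29 ± 0.283, edgeR adjusted p = 2.65e-08) and Igf2 (-4.65 ± 0.598, adjusted p = 9.75e-05) and the adhesion receptor gene Cd44 (-5.92 ± 0.609, adjusted p = 1.95e-05) fell most, and the kinase gene Mapk4 rose (2.76 ± 0.590, adjusted p = 0.00284). Without the mESC library of 7462710 counts Igf2 was at -5.46. Of 14 relatives of the 9 genes, 2 were higher, 5 were lower and 7 did not pass, against 22.8% higher and 25% lower among all genes tested. Ybx2, a cold shock domain gene (4.54 ± 0.543, edgeR adjusted p = 5.77e-05), and the HMG-box gene Hmgb2 (1.91 ± 0.114, adjusted p = 4e-07) were higher, Ybx2 at 5.23 without the MEF library of 7312679 counts. Trim32 (-1.60 ± 0.271, edgeR adjusted p = 0.000648) and Trim3 (-1.28 ± 0.326, adjusted p = 0.00786), ubiquitin ligases of the TRIM71 class, were lower.

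Over all tested genes with a 3′ UTR, those with an 8-base let-7 match were close in shares and median to the rest. Of the 501 with at least 1 such match, 22.4% were higher and 30.1% lower in mESCs, and of all 13021 with a 3′ UTR 23.6% and 29.8%, with medians of -0.11 and -0.06. The 27 genes with 2 or more 8-base matches held 12 higher and 5 lower, with a median of 0.88. Leaving out Lin28a, Trim71 and Igf2bp1 gave 9 higher and 5 lower of 24, with a median of 0.43. The median 3′ UTR was 4457 bases long in the 27 and 4046 in the 24, against 1221 for all, and no test was made. Besides the 3, this small set held Trim6 with 5 matches (log2 fold change 3.68) and Mcf2l with 7 (2.28), both chosen after their values were seen, and at its other end Adamts15 (-2.91) and Stx17 (-2.36), with 2 each.

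**Figure D5:**
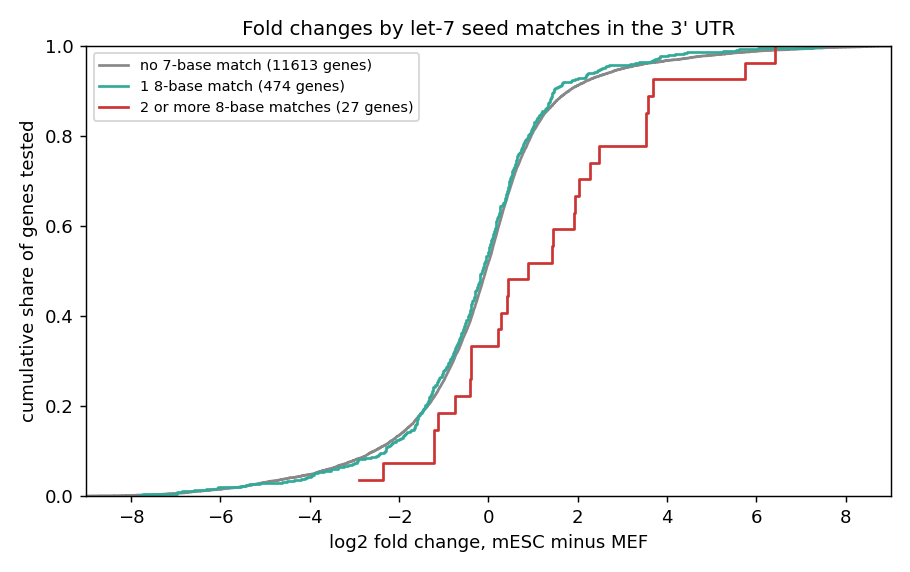
Cumulative share of tested genes against their log2 fold change, mESCs over MEFs, for genes with no 7-base let-7 match, with 1 8-base match and with 2 or more 8-base matches in the 3′ UTR. Genes with 7-base matches alone are not drawn. The curve of 474 genes with 1 match runs along that of 11613 genes without one, and the curve of 27 genes lies to the right over most of its length.

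The genes whose levels ran most like Lin28a over the 7 libraries were the chromatin remodeler gene Chd7, Smim40, the transcription factor gene Camta1, the nuclear import gene Kpna2 and the acylphosphatase gene Acyp1, with Pearson's r of log2CPM from 0.9943 to 0.9953. With 2 cell types such an r mostly restates the difference between them, and 1895 tested genes were above 0.9. Among the 9 genes, r with Lin28a was 0.98 for Igf2bp1, 0.95 for Trim71 and 0.90 for Lin28b, and it was -0.91 for Hmga2 and -0.81 for Igf2bp2.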

How the data were processed

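Members and gene lists were chosen with earlier results of these data known. The authors used Sabre and Cutadapt on the reads, STAR on mm10 (2.4.2a in the submitters' processing notes, another version in the study's methods), Je to collapse molecular identifiers and featureCounts for uniquely mapped reads on exons, and deposited unnormalized whole-number counts. The strand setting and annotation release are not given in the sources used here. The extraction text of the labels describes blood stem cells of young and aged mice, which is not what the samples are labelled as. Count columns give the cell type, a letter (O for every MEF, Y for every mESC) that no source explains, and a running number not tied to the sample titles, so libraries are named by their totals (6528643 to 11441278), and 0 columns were unused. Totals include 24 rows with symbols in the form of dates (0.248% of counts).

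edgeR 4.0.16 (limma 3.58.1, R 4.3.3) was run with TMM, filterByExpr and the quasi-likelihood test on 4 MEF and 3 mESC libraries, without covariates, and SE was taken as the fold change over the root of F, with 95% intervals from the degrees of freedom of that test. log2CPM used a prior count of 2. Ratios were compared by exact permutation over 35 assignments, two-sided by the size of the difference (smallest p 0.0286). The first run had used the doubled one-sided p, whose smallest value is 0.0571, and was replaced after that value was seen, so by it no ratio passes. UTRs and coordinates are from GENCODE M21, microRNAs from RefSeq, both on GRCm38. A later symbol was matched through RefSeq synonyms for 1 host gene. Shared sequence was counted as 50-base stretches on both strands.

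The code was tested on simulated data for mESCs against MEFs over 16580 genes: with 200 of them given a log2 fold change of 2, 187 were recovered, with 11 false calls. Every simulated gene had the same dispersion (spread beyond counting error) and most were unchanged, whereas 47.9% were called in the data. These figures check the code and are not the error rate of the comparison. Named are the 9 genes, copies sharing their sequence, the 3 highest and 3 lowest called genes of each list, hosts above 3 counts, and the 5 genes most correlated with Lin28a; others are marked or given for context, and 1 gene that the rule names is not reported here. Alternatives were DESeq2 1.42.0, other scaling and filters, a test against a fold change of 2, other prior counts and leaving out each library.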

Additional observations from a re-analysis of the deposited data

Results flagged for a closer look

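In groups of 4 libraries, 3 of 14 sets of MEF values held a library whose gap to its nearest neighbor, over the range of the set, was above the 95% critical value of Dixon's test. Chance flags about 1 in 20 such sets. Hmga1 was at 2.76 CPM in the MEF library of 9176467 counts and at 5.64 to 5.85 CPM in the others, a gap of 0.932 of the range. Dis3l2 was at 3.36 CPM in the MEF library of 11441278 counts and at 6.40 CPM or more in the others, 0.837 of the range. The log2 ratio of Hmga2 to Hmga1 was 5.89 in the MEF library of 6528643 counts and 7.31 to 7.39 in the others, 0.95 of the range. The low values of Hmga1 and Dis3l2 rest on 23 and 35 counts. The low ratio rests on 36 counts of Hmga1 and 2168 of Hmga2. In that library Hmga1 was at 5.73 CPM and Hmga2 at 345 CPM, its lowest MEF value. In the MEF library of 9176467 counts Hmga2 was at 448 CPM and Hmga1 at 2.76 CPM. The causes were not tested.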

How the results depend on the processing

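Over 118 alternative values, the fold changes of the 9 genes kept direction and call in 107, lost the call in 9 (8 for Hmga1, 1 for Igf2bp2), gained it in 2 and reversed in 0. Lin28a stayed between 6.05 and 6.69, Lin28b between 3.94 and 4.74, Trim71 between 3.19 and 3.84, Igf2bp1 between 1.27 and 1.70, and Hmga2 between -6.39 and -5.76, each called in 13 of 13. Igf2bp2, between -0.94 and -0.46, was not called against a fold change of 2. That test left 3991 genes called, 1714 higher and 2277 lower, with 1 of the 9 lower. Of the 9 genes, 4 to 7 were higher under the alternatives. Without scaling, 60.8% of calls were higher in mESCs against 47.7%. Leaving out a library, the ratio of Hmga2 to Hmga1 ranged from -7.50 to -6.67 and that of Igf2bp2 to Igf2bp1 plus Igf2bp3 from -2.24 to -1.87, in designs that cannot go below p = 0.0667 or 0.1 (exact permutation). Of 352 values of the other named genes, 324 kept direction and call, 23 lost it, 4 gained it (all for Hmga1b) and 1 reversed, Wdr82 at -0.10 without the mESC library of 8057985 counts (-0.10 to 0.18 over libraries left out). With 7-base matches in place of 8-base ones, 21.9% of genes were higher and 29.7% lower. No paired analysis was possible because the count columns carry no replicate number that ties them to the labels. Counts as low as those of both LIN28 genes in MEFs, 0 to 13 a library, limit any fold change.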
